A study of Mus musculus with 6 samples.

Results

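The genes of C-type natriuretic peptide signalling described here are the ligand gene Nppc, the receptor genes Npr2, Npr1 and Npr3, and the cGMP-dependent kinase genes Prkg1 and Prkg2. They are 6 of the 18193 genes that have a probe set of a single gene symbol on the array, and they carry 11 of the 34945 such probe sets. All 6 genes and all 11 probe sets lay above the filter on dim probe sets. The list was chosen on measured values of the comparison below: Npr2 had passed its threshold, and the other 5 genes were added because of their place in the same pathway. The values of all 6 genes in that comparison are therefore given as a description. Adjusted p-values of Npr2, and whether a gene passed the threshold, are given to show the value that led to the choice and how it moved with the processing, and are not a test of these genes.

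The tissue was microdissected mouse otic vesicle, the hollow epithelium from which the inner ear develops, together with the mesenchyme around it, at embryonic day 11.5. The Mest-KO group comprised 3 arrays of tissue with a T-Cre conditional knockout of Tbx1, a T-box transcription factor gene, and the control group comprised 3 arrays of T-Cre conditional Tbx1 heterozygotes. T-Cre is driven by the T (brachyury) promoter, which is active in early mesoderm. It is named in the labels of both groups, and the controls are labelled as heterozygous for Tbx1. The labels do not give the state of each allele. Each array was hybridised with RNA from a pool of 3 embryos, and the labels call the arrays biological replicates without giving litters.

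C-type natriuretic peptide is a secreted peptide that binds the receptor guanylyl cyclase encoded by Npr2 and makes it produce cGMP inside the cell. The cGMP-dependent kinase encoded by Prkg1 acts downstream of it. In the mouse embryo this route is known from sensory axons, which need the peptide, the receptor and the kinase to bifurcate where they enter the spinal cord and the hindbrain, and from cartilage, where it drives bone growth through the kinase encoded by Prkg2. The cochleovestibular ganglion, whose neurons innervate the inner ear, lies against the otic vesicle.

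The promoter windows of Npr2 and of Prkg1, the genes whose arrays did not overlap between the groups, are printed to show what lies around the transcript starts listed for them. They run from upstream to downstream of a RefSeq start on build GRCm38.p6, 5′ to 3′ on the gene's strand. Npr2 has 1 listed window, chr4:43631685-43631984 on the plus strand, and Prkg1 has a pair on the minus strand, chr19:31664321-31664620 and chr19:31764984-31765283. These listed starts are not the outer ends of the annotated genes: that of Npr2 lies 2920 bases inside the gene, and those of Prkg1 lie 100898 and 235 bases inside. Capitals mark the letters AGGTGT, the core of the half-site that T-box proteins bind.
Npr2: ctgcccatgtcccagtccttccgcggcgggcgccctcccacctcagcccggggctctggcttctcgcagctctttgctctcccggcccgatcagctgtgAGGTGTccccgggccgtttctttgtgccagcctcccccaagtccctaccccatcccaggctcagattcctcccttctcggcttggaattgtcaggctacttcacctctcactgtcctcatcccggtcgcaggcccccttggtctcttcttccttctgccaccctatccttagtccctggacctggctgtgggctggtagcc
Prkg1 first window: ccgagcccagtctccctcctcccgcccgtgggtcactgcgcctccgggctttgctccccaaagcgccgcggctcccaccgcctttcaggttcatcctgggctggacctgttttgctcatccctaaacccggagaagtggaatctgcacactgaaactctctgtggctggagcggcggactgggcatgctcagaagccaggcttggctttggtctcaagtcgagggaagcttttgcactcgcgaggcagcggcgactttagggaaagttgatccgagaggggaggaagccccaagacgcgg
Prkg1 second window: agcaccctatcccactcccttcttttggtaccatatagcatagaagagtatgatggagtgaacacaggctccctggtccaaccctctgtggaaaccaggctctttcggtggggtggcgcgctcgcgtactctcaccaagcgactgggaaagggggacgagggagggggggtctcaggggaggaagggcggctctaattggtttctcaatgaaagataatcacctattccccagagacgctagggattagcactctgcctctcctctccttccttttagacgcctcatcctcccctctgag
Windows were listed for 5 of the 6 genes, all but Prkg2, and there were 6 of them. AGGTGT, searched on both strands (ACACCT on the other), occurred in 1 of the 6, that of Npr2, where it began 151 bases before that listed start. It occurred in 13.7% of the 32851 mouse promoter windows of the same length. The longer form AGGTGTGA, which contains the first and was also searched on both strands, occurred in 0 of the 6 windows and in 1.28% of all of them. These matches describe letters in a window and were not measured as binding sites.

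Values are scaled linear intensities, and the differences were fitted with limma on log2(intensity + 16), as Mest-KO minus control. Between all 6 arrays, correlations of these log2 values lay between 0.991 and 0.993 within the groups and between 0.987 and 0.992 across them. Of the 14170 genes tested, 21 passed an adjusted p of 0.05, which is 0.148% of them. At an unadjusted p of 0.05 it was 8.97%. The 3 Mest-KO arrays were all above the 3 control arrays in 9.32% of genes and all below them in 5.22%. The median difference over all genes was 0.01. Tbx1 itself lay between 410 and 578 in the Mest-KO arrays and between 447 and 567 in the control arrays, a log2 difference of -0.03 ± 0.14 (SE). Its probe set does not check the genotype, since the controls are heterozygous and the position of its probes against the deleted part is unknown. Which cells of the tissue expressed Tbx1, and where T-Cre acted, was not tested.

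Among the 6 genes, Npr2 was the 1 that had passed the threshold, and Npr2 and Prkg1 were the 2 in which every Mest-KO array was above every control array. The differences of the 6 genes had a median of 0.07, with 3 above 0 and 3 below. By single probe set, 1 of the 11 (that of Npr2) had passed the threshold and 4 of the 11 had all Mest-KO arrays above all control arrays. Over the 26736 probe sets tested singly these shares were 0.0748% and 8.88%. Because Npr2's call led to the list, nothing is read from its part in these counts.

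**Figure D1:**
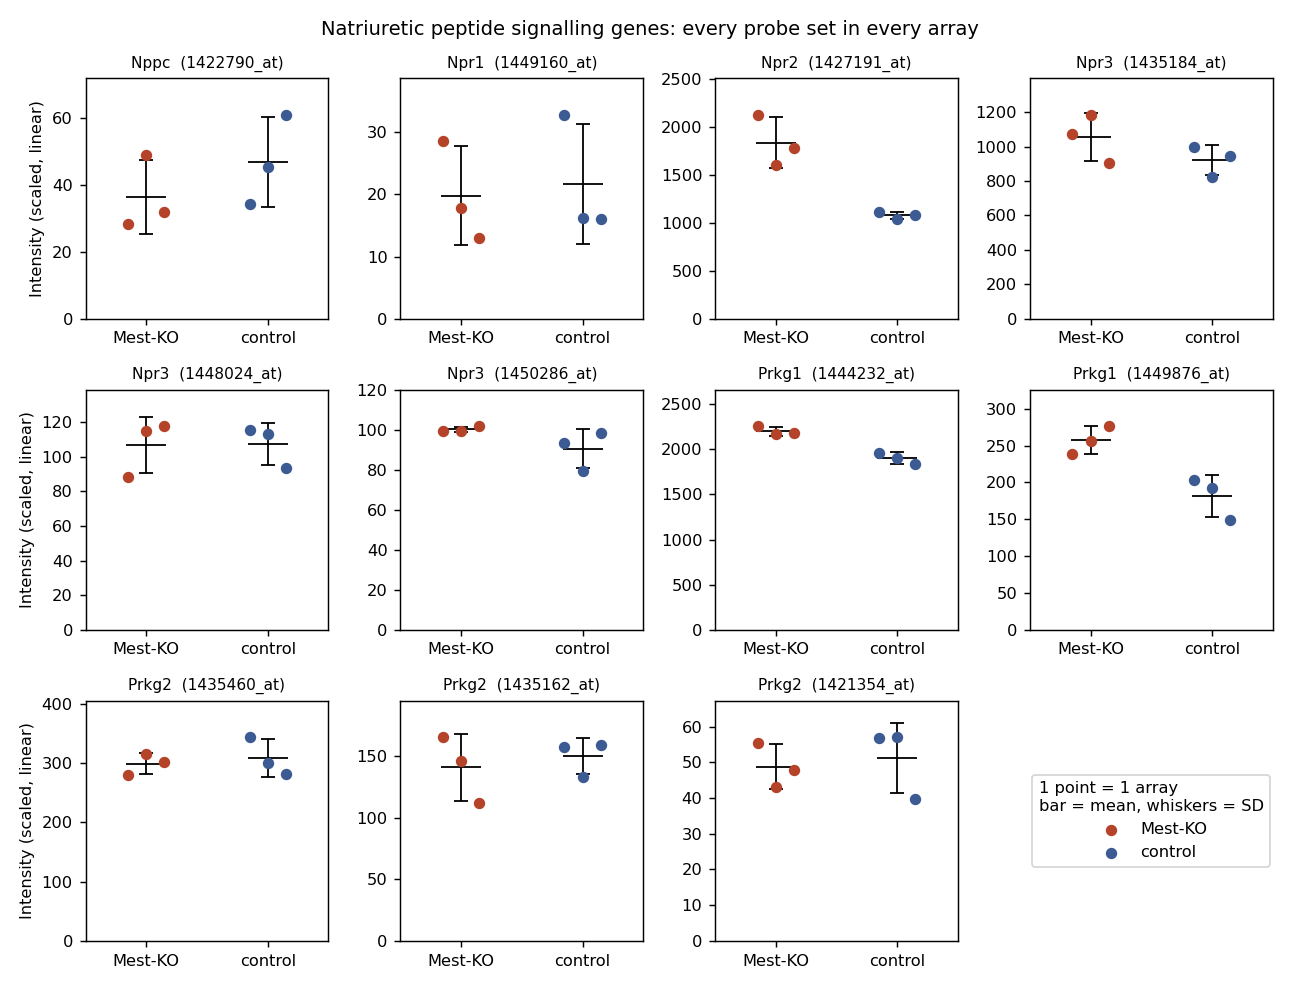
Scaled linear intensity of every probe set of the 6 genes, 1 panel per probe set and 1 point per array, with Mest-KO left of control, the mean as a bar and the SD as whiskers (n = 3 each). The groups are apart for Npr2 and for both Prkg1 probe sets, just apart for 1 Npr3 probe set (1450286_at), and overlap in the other panels.

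Nppc encodes the precursor of C-type natriuretic peptide. Its single probe set (1422790_at) read 28.5, 49.1 and 31.8 in the Mest-KO arrays, against 34.2, 45.3 and 61.0 in the control arrays. The groups overlapped, with 1 Mest-KO array above 2 of the control arrays. The means were 36.5 ± 11.1 in Mest-KO tissue and 46.9 ± 13.4 in control tissue (SD, n = 3 each), and the log2 difference was -0.26 (-0.73 to 0.21, 95% interval). That interval is wide: it holds a lower level in Mest-KO tissue and also no difference. Single arrays moved the estimate, which was -0.15 without Mest-KO array 1, -0.42 without Mest-KO array 2, -0.41 without control array 1 and -0.10 without control array 3.

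Npr2 encodes the guanylyl cyclase receptor for C-type natriuretic peptide, also called GC-B. Its single probe set (1427191_at) read 2120.3, 1599 and 1777 in the Mest-KO arrays, against 1106, 1035 and 1083 in the control arrays. The lowest Mest-KO array was 1.45 times the highest control array, so the groups were well apart, and the Mest-KO arrays were spread more widely than the control arrays. The means were 1832 ± 265 in Mest-KO tissue and 1075 ± 36.2 in control tissue (SD, n = 3 each), a ratio of 1.71. On the log2 scale the difference was 0.75 ± 0.11 (SE), with a 95% interval from 0.52 to 0.99, and it was the 48th highest among the 14170 genes. The adjusted p by which Npr2 had been chosen was 0.0256 in the fit across genes. In tissue of many cell types such a value cannot tell more Npr2-expressing cells apart from more Npr2 RNA per cell.

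Whether Npr2 passed the threshold depended on which arrays were used. Leaving out 1 array at a time gave log2 differences between 0.64 and 0.84. Their positive sign was fixed in advance, since every Mest-KO array was above every control array. Each of these fits also has fewer arrays, which by itself can raise the adjusted p. The adjusted p was 0.123 without Mest-KO array 1, which had the highest Npr2 value, 0.0555 without Mest-KO array 3, 0.0782 without control array 1 and 0.113 without control array 3. It was 0.0257 without Mest-KO array 2 and 0.0250 without control array 2.

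Npr1 encodes the related guanylyl cyclase receptor GC-A, which binds the atrial and B-type peptides. Its probe set (1449160_at) read 28.6, 17.8 and 13.0 in the Mest-KO arrays, against 32.8, 16.3 and 16.1 in the control arrays. These readings overlapped throughout and lay close to the brightest unspiked control probe set, 11.2, so the array holds little information on Npr1 in this tissue. The log2 difference was -0.07 (-0.58 to 0.44, 95% interval).

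Npr3 encodes the clearance receptor, which takes up all 3 natriuretic peptides and has no cyclase domain. Its brightest probe set (1435184_at) read 1071, 1184 and 907 in the Mest-KO arrays, against 997, 824 and 945 in the control arrays. The groups overlapped. The means were 1054 ± 139 in Mest-KO tissue and 922 ± 88.8 in control tissue (SD, n = 3 each), and the log2 difference was 0.19 (-0.08 to 0.45, 95% interval). The other two probe sets differed by -0.01 ± 0.16 (1448024_at) and 0.13 ± 0.15 (1450286_at, SE). For 1450286_at the lowest Mest-KO reading, 99.2, was just above the highest control reading, 98.6. The 3 probe sets thus gave differences of both signs, and the interval of each included 0.

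Prkg1 encodes cGMP-dependent protein kinase I, the kinase that acts below the receptor in sensory axons and also in smooth muscle. Its brighter probe set (1444232_at) read 2255, 2165 and 2180.0 in the Mest-KO arrays, against 1963, 1902 and 1834 in the control arrays. Every Mest-KO array was above every control array. The means were 2200.1 ± 48.5 in Mest-KO tissue and 1899.6 ± 64.9 in control tissue (SD, n = 3 each), and the log2 difference was 0.21 ± 0.07 (SE; 95% interval from 0.05 to 0.37). It did not pass the threshold over all genes, and 13.0% of all genes tested had a higher difference.

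The dimmer Prkg1 probe set (1449876_at) read 239, 257 and 276 in the Mest-KO arrays, against 204, 193 and 149 in the control arrays. Here too the groups did not overlap. The means were 258 ± 18.6 in Mest-KO tissue and 182 ± 29.0 in control tissue (SD, n = 3 each), and the log2 difference was 0.48 ± 0.15 (SE; 95% interval from 0.15 to 0.80). Both probe sets were therefore higher in Mest-KO tissue. The interval of the dimmer one contains the difference of the brighter one, but the interval of the brighter one does not contain that of the dimmer one. The estimate for the gene was 0.34 when the probe sets were averaged, and 0.15 when each array was centred on its median.

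Prkg2 encodes the membrane-bound cGMP-dependent protein kinase II, which acts in growth plate cartilage and intestine. Its brightest probe set (1435460_at) read 280.3, 315 and 301 in the Mest-KO arrays, against 343, 299.7 and 281 in the control arrays. The groups overlapped, and the log2 difference was -0.04 (-0.31 to 0.24, 95% interval). The other two probe sets overlapped as well, with differences of -0.09 ± 0.16 (1435162_at) and -0.05 ± 0.17 (1421354_at, SE).

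**Figure D2:**
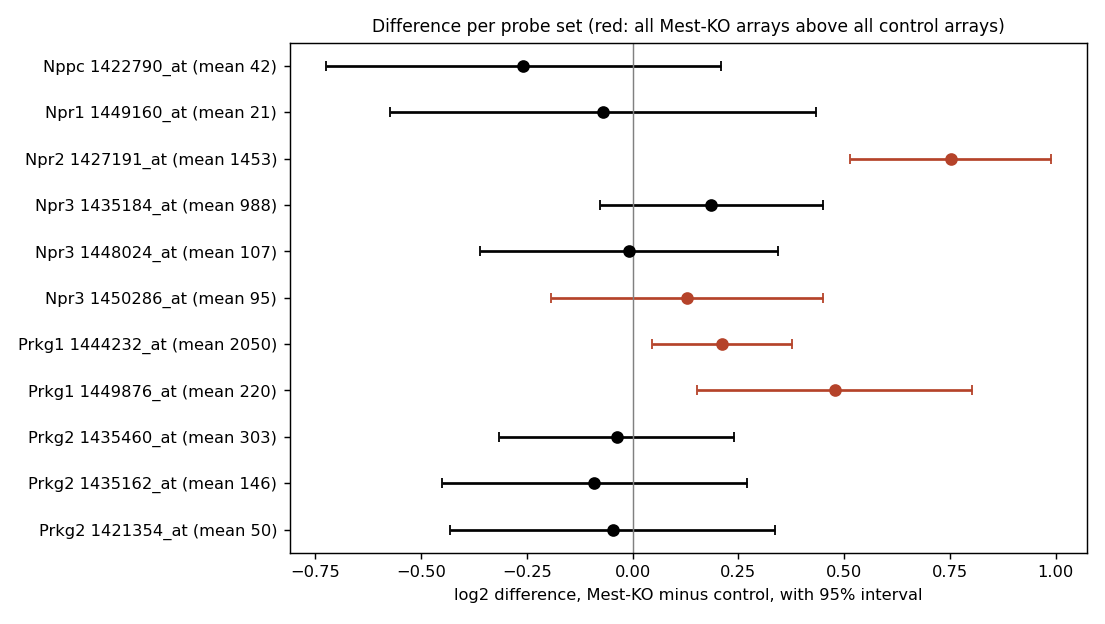
Log2 difference between Mest-KO and control arrays with its 95% interval for each of the 11 probe sets (x axis), the intervals being those of the fit across single probe sets. The interval of Npr2 and those of both Prkg1 probe sets lie above 0, and the other 8 include 0.

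**Figure D3:**
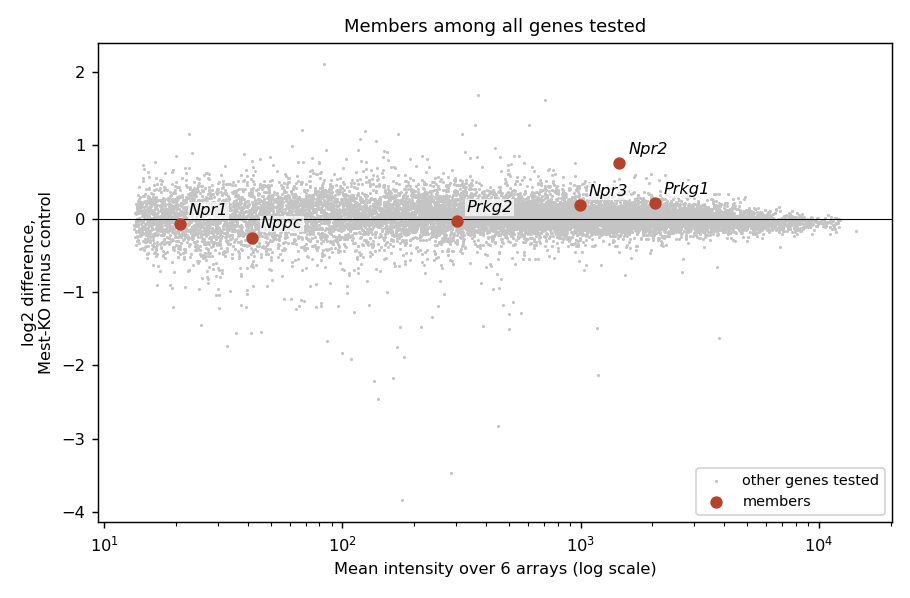
Log2 difference between Mest-KO and control arrays (y axis) against mean intensity over the 6 arrays on a log scale (x axis) for the 14170 genes tested, with the 6 signalling genes in red. Npr2 lies above the band that holds most genes at its intensity, while the other 5 lie within it.

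The genes around these in the pathway came from 7 lists with 72 entries, of which 62 had a probe set of a single gene symbol and 46 were bright enough to be tested. No gene rose and no gene fell past the threshold in limma's fit, and at an unadjusted p of 0.05 there were 3 higher and 2 lower in Mest-KO tissue, against 8.97% of all genes in either direction. The differences of the 46 genes ran from -0.36 to 0.45 with a median of 0.03, against 0.01 over all genes. Of the 46, 27 lay above 0 and 19 below, where 53.8% of all genes lay above 0. In 3 of them every Mest-KO array was above every control array and in 1 every one was below, against 9.32% and 5.22% of all genes. These counts lie near the shares over all genes. At or below the brightest unspiked control in all 6 arrays were 8 of the listed genes with a probe set: Gucy2e, Gucy2g, Pde6a, Cnga1, Cnga2, Cnga4, Cngb3 and Nos2. The means of both groups, though not every array, were below it for 4 more: Nppb, Gucy2c, Pde6c and Cngb1.

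Of the ligands and their processing enzymes 5 were tested, with 4 above 0, 1 below and a median of 0.02. Corin, the protease that cleaves the atrial peptide precursor, read 875, 986 and 885 in the Mest-KO arrays, against 712, 646 and 645 in the control arrays. Its groups did not overlap, and its log2 difference was 0.45 ± 0.10 (SE; limma adjusted p = 0.165). Mme, which encodes neprilysin, a peptidase that degrades natriuretic peptides, read 1085, 1067 and 863 in the Mest-KO arrays, against 1341, 1134 and 1388 in the control arrays. Every Mest-KO array was below every control array, with a difference of -0.36 ± 0.12 (SE; limma adjusted p = 0.351). Nppa, the atrial peptide gene, averaged 20.1 ± 6.13 in Mest-KO tissue and 10.9 ± 4.53 in control tissue (SD, n = 3 each), close to background.

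The other guanylyl cyclases were represented by 3 subunits of the soluble, nitric oxide-sensitive enzyme, Gucy1a2, Gucy1a1 and Gucy1b1. Their differences were all slightly below 0, between -0.08 and -0.01, and their groups overlapped. Among the nitric oxide synthases that feed this enzyme, Nos1 differed by 0.19 ± 0.19 and Nos3 by 0.06 ± 0.20 (SE). The tested channels of the cyclic nucleotide-gated list were Hcn3, at 0.24 ± 0.21, and Hcn2, at 0.14 ± 0.17 (SE). None of these differences exceeded its standard error by much, and none passed the threshold.

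Of the phosphodiesterases, which break cGMP down, 9 of 14 were tested, with 5 above 0, 4 below and a median of 0.05. Pde2a, an enzyme that cGMP itself stimulates, read 1011, 795 and 756 in the Mest-KO arrays, against 695, 583 and 593 in the control arrays. The groups did not overlap, and the difference was 0.44 ± 0.13 (SE; limma adjusted p = 0.284). Pde1b, a calmodulin-dependent enzyme, averaged 157 ± 15.8 in Mest-KO tissue and 209 ± 48.8 in control tissue, and Pde5a, which is specific for cGMP, averaged 440.1 ± 32.4 in Mest-KO tissue and 517 ± 81.4 in control tissue (SD, n = 3 each). Both sets of arrays overlapped.

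Of the kinase substrates and partners 12 of 14 were tested, with 6 above 0, 6 below and a median of 0.00. Septin3, a neuronal septin phosphorylated by the type I kinase, read 2323, 2092 and 2214 in the Mest-KO arrays, against 1896, 1812 and 1824 in the control arrays. The groups did not overlap, and the difference was 0.26 ± 0.08 (SE; limma adjusted p = 0.284). Rgs2, a regulator of G protein signalling, averaged 1621 ± 229 in Mest-KO tissue and 1957 ± 129 in control tissue (SD, n = 3 each), with arrays that overlapped. Gtf2i, a transcription factor gene, differed by 0.13 ± 0.07 (SE).

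Of the genes of sensory axon branching and growth outside the pathway 13 of 15 were tested, with 8 above 0, 5 below and a median of 0.03. Robo2, a receptor for Slit proteins, averaged 42.5 ± 16.9 in Mest-KO tissue and 29.2 ± 4.71 in control tissue (SD, n = 3 each). Dpysl2, which encodes the axonal protein CRMP2, differed by -0.09 ± 0.06 and the ligand gene Slit1 by -0.22 ± 0.17 (SE). No gene of this list had groups that were apart.

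**Figure D4:**
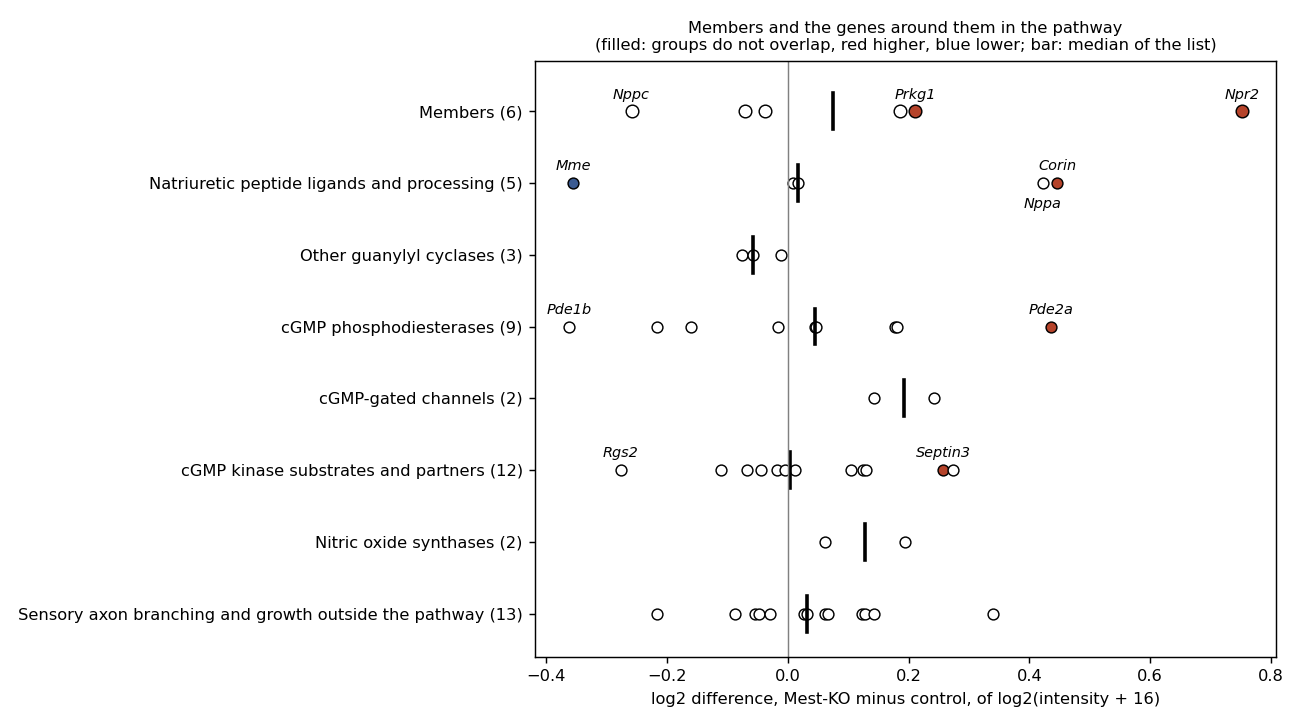
Log2 difference between Mest-KO and control arrays (x axis) for the 6 signalling genes, in the top row, and for the 46 tested genes of the 7 pathway lists, 1 row per list with its number tested and its median as a bar. Filled points mark genes whose groups do not overlap: besides Npr2 and Prkg1 they are Corin, Pde2a and Septin3 above 0 and Mme below 0.

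Markers of some cell types were higher in Mest-KO tissue, as were Npr2 and Prkg1. Of the markers of cranial sensory neurons, cells in which Npr2 and Prkg1 are known to act, 11 of 12 were tested, and all 11 were above 0 with a median difference of 0.26. In 6 of the 11 every Mest-KO array was above every control array. Over all genes, for this and the lists below, these shares were 53.8% above 0 and 9.32% with all Mest-KO arrays above. Pou4f1, a transcription factor gene of sensory neurons, rose past the threshold, at 2031 ± 26.9 in Mest-KO tissue against 1347 ± 92.6 in control tissue (SD, n = 3 each; log2 difference 0.59 ± 0.08, limma adjusted p = 0.0256). This call was lost with no filter on dim probe sets, with eBayes without trend, without Mest-KO array 1 and without control array 1. In each of these settings no gene rose past the threshold. Neurod1 averaged 4049 ± 319 in Mest-KO tissue and 3189 ± 97.7 in control tissue (limma adjusted p = 0.165). The summed level of the 11 markers lay between 35159 and 37391 in the Mest-KO arrays and between 29865 and 32991 in the control arrays, and these ranges did not overlap. None of the 11 was at background.

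The markers of neural crest and Schwann precursors were also all above 0, 5 of the 5 tested, with a median of 0.41. Sox10 averaged 2652 ± 170 in Mest-KO tissue and 1989 ± 116 in control tissue, and Ngfr 900.0 ± 112 in Mest-KO tissue and 670.3 ± 35.4 in control tissue (SD, n = 3 each). Their summed level lay between 9489.8 and 10004 in the Mest-KO arrays and between 8337 and 8648 in the control arrays. The blood endothelium markers were above 0 in 7 of 7, with a median of 0.07, and summed to between 4614 and 5016 in the Mest-KO arrays and to between 4172 and 4527 in the control arrays. The groups were apart in 2 of the 7, Tek and Tie1, and overlapped in the others. Tek averaged 1389 ± 61.4 in Mest-KO tissue and 1132 ± 14.1 in control tissue. Tie1 averaged 312 ± 46.4 in Mest-KO tissue and 208 ± 12.7 in control tissue (SD, n = 3 each). No gene of these 2 lists passed the threshold, and no marker of either was at background. The part of these cell types in the values of Npr2 and Prkg1 was not tested.

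The other marker lists did not separate the groups in their summed level. Smooth muscle and pericyte markers, which mark another site of Prkg1, were above 0 in 5 of 6 with a median of 0.05, and summed to between 3921 and 5168 in the Mest-KO arrays and to between 4039 and 4276 in the control arrays. Condensing cartilage markers, which mark a site of Npr2 and Prkg2, were above 0 in 2 of 8 with a median of -0.08. Markers of periotic and head mesenchyme were above 0 in 2 of 8 with a median of -0.23. While their sums overlapped, their mean centred log2 levels did not. These were -0.22, -0.0004 and -0.14 in the Mest-KO arrays, against 0.19, 0.11 and 0.06 in the control arrays. Otic epithelium markers were above 0 in 4 of 9 with a median of -0.04. Otx1 was the 1 gene of that list whose groups were apart, with every Mest-KO array below every control array. It averaged 22.98 ± 5.75 in Mest-KO tissue and 51.97 ± 15.95 in control tissue (SD, n = 3 each). Its log2 difference was -0.79 ± 0.20 (SE; limma adjusted p = 0.209). Skeletal muscle markers were above 0 in 4 of 7 with a median of 0.06. Every tested marker of the labelled tissue was above the brightest unspiked control. Among them was the otic matrix gene Oc90, at 3484 ± 384 in Mest-KO tissue and 3075 ± 262 in control tissue (SD, n = 3 each). Oc90 was chosen after its values were seen, and its groups overlapped.

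Hindbrain and Y-linked markers set 2 of the control arrays apart. The 9 hindbrain markers were all below 0 with a median of -1.19, and summed to 557, 817 and 355 in the Mest-KO arrays, against 1995, 564 and 1954 in the control arrays, so that control arrays 1 and 3 were high. The 3 Y-linked markers summed to 2609, 2374 and 2289 in the Mest-KO arrays, against 1378, 2577 and 1395 in the control arrays, where arrays 1 and 3 were low. Against control array 2 alone, the log2 difference of Npr2 was 0.80 ± 0.16 (SE), a fit in which the lone control array is assumed to vary like the Mest-KO arrays. With the hindbrain marker mean as a covariate it was 0.73 ± 0.16 (SE; limma adjusted p = 0.272), and with the Y-linked marker mean 0.77 ± 0.13 (SE; limma adjusted p = 0.0688). Npr2's difference was of about the same size in these fits, and its call was lost with either covariate. In control arrays 1 and 3 the hindbrain mean was above that of every Mest-KO array, and the Y-linked mean was below. With so few arrays these fits cannot separate this imbalance from genotype. The part of either marker list in Npr2's difference was therefore not tested.

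**Figure D5:**
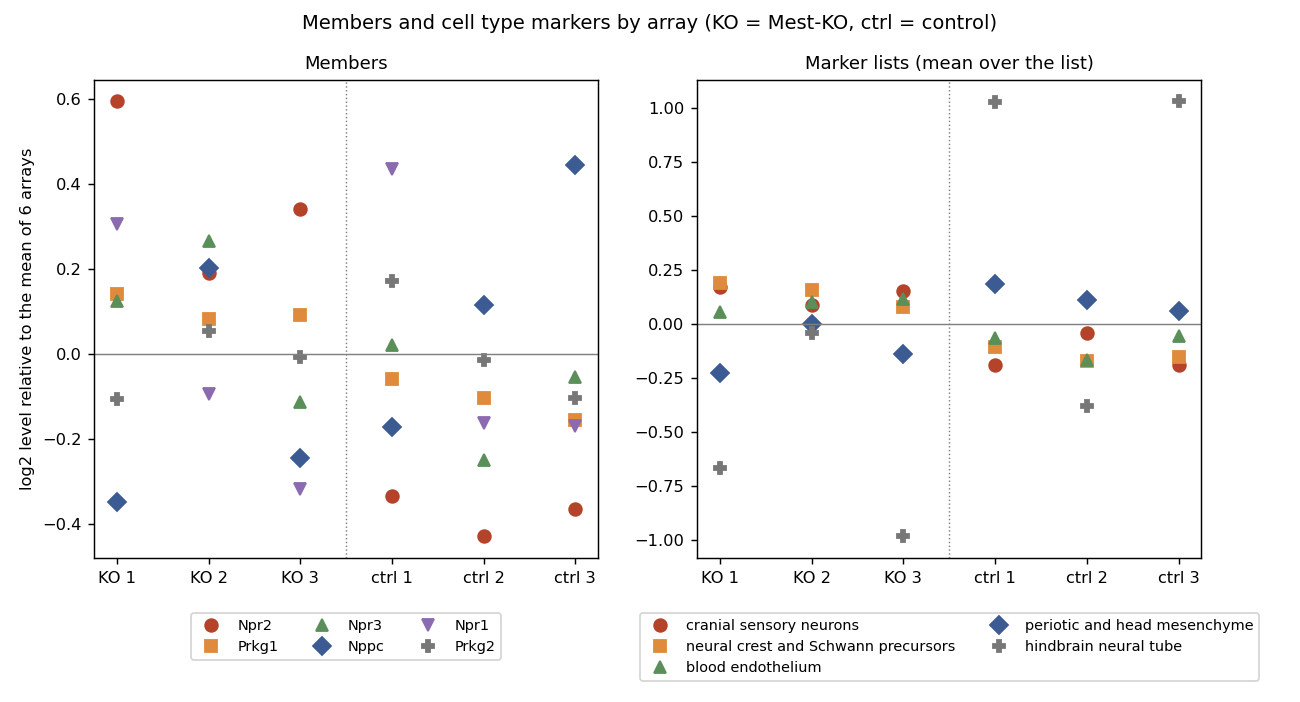
Log2 level of the 6 signalling genes (left) and mean log2 level of 5 of the marker lists (right), each relative to its own mean over the 6 arrays, with Mest-KO arrays (KO) left of control arrays (ctrl). Npr2 and Prkg1 are above 0 in every Mest-KO array and below 0 in every control array, as are the sensory neuron, neural crest and endothelial lists. The periotic and head mesenchyme list lies the other way, with Mest-KO array 2 only just below 0. The hindbrain list is high in control arrays 1 and 3.

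The genes whose profile over the 6 arrays was most like that of Npr2 were found by the root mean square distance between centred log2 levels. Npr2's own profile had a root mean square size of 0.395. The nearest was Tspan17, a tetraspanin gene, at a distance of 0.0934, the 1 gene closer than 0.1. It was followed by Tle2, a Groucho-family corepressor gene, at 0.105, the zinc finger gene Zfp276 at 0.106, Ndst3, a heparan sulfate sulfotransferase gene, at 0.108, and Czib at 0.109. Being chosen for likeness to Npr2, these genes are higher in Mest-KO tissue by construction, and their differences ran from 0.54 for Czib to 0.90 for Tle2.

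The profile of Prkg1 was shared by many genes: 1353 lay within 0.1 of it, the nearest being Pus3, at 0.0171, and Klhl17, at 0.0179. Around Prkg2 there were 1419 genes within that distance, with Mcts1 and Tmem42 nearest, and around Npr3 there were 290, with Gramd1b and Cdkl3 nearest. Nppc had 0 genes within 0.1, its nearest being Gp5 and Il12rb2, and Npr1 had 10, with Nat8f4 and Ccl12 nearest. The profile sizes were 0.111 for Prkg1, 0.0952 for Prkg2, 0.165 for Npr3, 0.277 for Nppc and 0.273 for Npr1, so a distance of 0.1 is close to the whole profile for Prkg1 and Prkg2.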

How the data were processed

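RNA from 3 Mest-KO and 3 control pools was measured on Affymetrix mouse expression arrays, 300 ng of total RNA per array per the labels. The deposited intensities are linear and were scaled by the authors, since every array has the same trimmed mean (2% cut at each end). Affymetrix Expression Console 1.1 is named in the submitters' processing notes, and how probes were summarized and corrected is not given in the sources used here. Probe sets were named from GEO's platform annotation: of 45101, 34945 had 1 gene symbol, 932 several genes and 9160 no symbol or no listing. The probe set with the highest mean log2 intensity stood for a gene, and genes at or under the 30th percentile of all probe sets were left out. Differences were fitted with limma 3.58.1 (lmFit, eBayes with trend) in R 4.3.3 on log2(intensity + 16), two-sided, with Benjamini-Hochberg adjustment over all genes kept. The constant makes the differences of dim genes smaller. Precision is limited by the number of arrays. The fit was tested on simulated data.

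The 6 genes, the pathway and marker lists and the alternatives were chosen with earlier results of these data known. Named were the 6 genes, up to 3 genes with the smallest p of each pathway list, up to 2 of each marker list, Oc90 (chosen after its values were seen), and the 5 or 2 nearest profiles. The promoter sequences are RefSeq's, on GRCm38.p6. Alternatives changed the normalization, constant, filter, test settings, probe set rule, covariates and arrays.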

Additional observations from a re-analysis of the deposited data

How the results depend on the processing

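Npr2 was higher in Mest-KO tissue in all 19 alternatives, with log2 differences between 0.64 and 0.84. Because its groups did not overlap, changing the constant, filter, test settings or arrays could not change this sign. Its adjusted p was under 0.05 in 8 of the 19 and ranged from 0.0103 to 0.272. The adjusted p was 0.0997 with no filter, 0.15 with eBayes without trend and 0.0626 with all probe sets of a gene averaged. No pathway gene passed the threshold in any alternative. The number of genes that did was 21, 12 of them higher and 9 lower. It was 76 with arrays centred on their medians (22 higher, 54 lower), 21 with quantile normalization (10 higher, 11 lower), 2 with no filter, 1 with eBayes without trend and 6 with probe sets averaged. Leaving out 1 array gave between 2 genes (without control array 1) and 84 (without control array 2), with 3 without Mest-KO array 1, 9 without Mest-KO array 2 and 6 without control array 3. Among alternatives chosen after seeing the data, it was 5 without control arrays 1 and 3, and 7 with the hindbrain marker mean as a covariate. With the replicate number as a block 9 genes passed, and Npr2 differed by 0.75 with an adjusted p of 0.0513. Arrays of the same number did not deviate together (correlations of -0.03, -0.11 and -0.15), so the numbers were not taken as pairs.

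Prkg1, whose groups also did not overlap, stayed above 0 in all 19 alternatives, between 0.15 and 0.34. Npr3 stayed above 0 in all 19 as well, between 0.10 and 0.43. Nppc stayed below 0 in all 18 that gave a value, between -0.42 and -0.09. The sign held in 14 of 18 for Npr1 (-0.24 to 0.14) and in 16 of 19 for Prkg2 (-0.10 to 0.04). None of these 5 genes had an adjusted p under 0.05 in any alternative. The low signal of Npr1 and Nppc limits what can be seen of them.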

Other observations

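Genes next to the 6 on the chromosome, 2 on each side in the RefSeq order, were looked up as a further description. Of the 24 neighbours 18 were tested, and none passed the threshold in limma's fit or an unadjusted p of 0.05. Beside Npr2, Rgp1, a gene of a Golgi trafficking complex, averaged 928 ± 94.3 in Mest-KO tissue and 850.3 ± 15.3 in control tissue (SD, n = 3 each), and Hint2, a mitochondrial hydrolase gene, differed by -0.07 ± 0.12 (SE). Spag8, a sperm-associated gene whose annotation overlaps Npr2, averaged 27.2 ± 6.11 in Mest-KO tissue and 32.2 ± 10.7 in control tissue. Cstf2t, an RNA processing gene that lies within Prkg1, averaged 2760.1 ± 70.5 in Mest-KO tissue and 2741 ± 78.6 in control tissue, and Dkk1, which encodes a secreted WNT inhibitor and lies next to Prkg1, differed by 0.12 ± 0.13 (SE). The groups overlapped for all 5 of these genes. Of the 18 tested neighbours 1 had groups apart: Slc27a3, near Npr1, with every Mest-KO array below every control array. Its difference was -0.04 ± 0.11 (SE), and 5.22% of all genes were apart in that direction.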
